A study of Mus musculus with 43 samples.

Results

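Isolated long intergenic noncoding RNA (lincRNA) genes were defined as autosomal genes of GENCODE vM21, the mouse gene annotation on build GRCm38 (mm10), with the gene type lincRNA and with every transcript start more than 5000 bp from every protein-coding transcript start. This rule took 4549 of the 5209 autosomal lincRNA genes (87.3%), out of 51229 autosomal genes in all, and used no measured value. Their promoters were the 6493 transcript starts with 3000 bp on each side, which cover 1.19% of the autosomes. The study asked what Prmt1, a protein arginine methyltransferase that places asymmetric dimethylarginine, does in mouse male germ cells. It comprised 43 samples, of which 33 were CUT&Tag peak lists (antibody-guided tagmentation that maps a histone mark) and 10 were RNA libraries. The wild-type (WT) CUT&Tag mice were C57BL/6J, killed at postnatal day 7 (P7, 17 lists with those of the mutant) or day 14 (P14, 16 lists), with 2 or 3 lists per mark. The P7 lists are labelled spermatogonia, and the P14 lists carry both spermatogonia and spermatocyte in their labels. All were made from digested testis tubules that were strained to remove Sertoli cells, without a stated sort, so that age and the mix of cells cannot be told apart. Prmt1-dKO stands for Prmt1 lox/lox mice with the Ddx4-CreERT2 driver, whose Cre is made in germ cells and needs tamoxifen, given for 3 days. They were sampled at P7 for H4R3me2s CUT&Tag (2 lists against 2 WT), for RNA of the whole testis (3 against 3) and for Smart-seq2 RNA of cells sorted by EGFP (2 against 2). The sorted controls are labelled WT, but the methods describe mice heterozygous for the floxed allele that carry the same Ddx4 driver with its GFP tag. The study describes the sorted libraries as biological duplicates, but the labels do not tie any library to an animal, so p-values measure the spread between these libraries.

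A lincRNA is a transcript that codes for no known protein and lies between protein-coding genes. Active promoters, coding or not, usually carry H3K4me3, and acetylation at H3K27 marks active promoters and enhancers. Arginine methylation comes in a monomethyl form (H4R3me1), an asymmetric dimethyl form laid down by type I enzymes such as Prmt1 (H4R3me2a, H3R2me2a and H3R8me2a were measured) and a symmetric form laid down by type II enzymes (H4R3me2s). Testis is known for broad transcription of noncoding genes. Many mammalian promoters lie in CpG islands, where the CG dinucleotide is not depleted.

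The nearest coding start lay at a median of 74511 bp (quartiles 28900 and 194821 bp). The gene just inside the rule was AW121686 at 5002 bp and the gene just outside was Gm15729 at 4987 bp. Of the 4549 genes, 3540 (77.8%) have 1 annotated transcript, 192 have a start inside a coding gene, 715 have a start of another noncoding gene within 3000 bp, and 507 share part of their window with another isolated lincRNA gene, so that these windows are not independent. Chromosome 13 held the most (385) and chromosome 19 the fewest (118).

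Promoter sequence was read from 250 bp before to 50 bp after the annotated 5′-most start (300 bp, upstream flank and start of the first exon, GRCm38, printed 5′ to 3′ on the gene's strand). The 7 promoters below show the range that the marks and RNA turned on, and capitals mark CpG dinucleotides. The first is the promoter of 4932412D23Rik, which carried all 7 marks at P7 (chr16:42875713-42876012, minus strand, 26 CpG). 1700020I14Rik (chr2:119594047-119594346, plus strand, 15 CpG) was among the most abundant in sorted cells. Malat1 (chr19:5802623-5802922, minus strand, 10 CpG), Snhg12 (chr4:132308373-132308672, plus strand, 13 CpG) and Meg3 (chr12:109540751-109541050, plus strand, 13 CpG) are named RNAs that recur below. 1700048O20Rik (chr9:121936973-121937272, plus strand, 1 CpG) was abundant in sorted cells and has almost no CpG at this, its 5′-most, start. 4933406D12Rik (chr2:146542681-146542980, plus strand, 0 CpG) had H3K4me3 lists only at P14.

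4932412D23Rik: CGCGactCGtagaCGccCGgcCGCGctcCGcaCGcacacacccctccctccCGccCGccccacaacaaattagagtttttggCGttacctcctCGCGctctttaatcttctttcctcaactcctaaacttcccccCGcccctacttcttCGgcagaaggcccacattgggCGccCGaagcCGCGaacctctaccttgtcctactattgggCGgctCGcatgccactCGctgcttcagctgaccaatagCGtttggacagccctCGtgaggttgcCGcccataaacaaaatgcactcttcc
1700020I14Rik: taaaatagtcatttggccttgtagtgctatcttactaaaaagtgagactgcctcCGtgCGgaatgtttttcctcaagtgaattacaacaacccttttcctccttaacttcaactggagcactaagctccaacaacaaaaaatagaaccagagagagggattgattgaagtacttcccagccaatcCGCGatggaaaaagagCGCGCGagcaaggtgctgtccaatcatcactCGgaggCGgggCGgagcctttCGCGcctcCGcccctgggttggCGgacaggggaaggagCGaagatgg
Malat1: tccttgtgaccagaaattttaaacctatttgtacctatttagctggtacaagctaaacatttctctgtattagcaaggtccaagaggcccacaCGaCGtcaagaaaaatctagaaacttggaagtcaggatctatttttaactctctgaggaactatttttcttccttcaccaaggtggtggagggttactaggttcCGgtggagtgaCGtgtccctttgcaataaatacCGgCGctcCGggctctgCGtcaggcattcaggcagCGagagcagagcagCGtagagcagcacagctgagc
Snhg12: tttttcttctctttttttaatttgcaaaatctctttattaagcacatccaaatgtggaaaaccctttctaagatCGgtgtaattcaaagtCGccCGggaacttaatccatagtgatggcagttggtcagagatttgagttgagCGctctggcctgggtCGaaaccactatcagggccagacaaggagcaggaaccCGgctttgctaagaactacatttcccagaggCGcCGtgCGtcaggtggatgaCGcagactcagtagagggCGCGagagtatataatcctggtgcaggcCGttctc
Meg3: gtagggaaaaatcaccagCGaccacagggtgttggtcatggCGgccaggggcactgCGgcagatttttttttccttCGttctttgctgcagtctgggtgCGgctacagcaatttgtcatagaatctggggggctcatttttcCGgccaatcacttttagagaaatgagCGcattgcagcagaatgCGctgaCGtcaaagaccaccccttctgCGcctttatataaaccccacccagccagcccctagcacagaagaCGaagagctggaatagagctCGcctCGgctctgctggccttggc
1700048O20Rik: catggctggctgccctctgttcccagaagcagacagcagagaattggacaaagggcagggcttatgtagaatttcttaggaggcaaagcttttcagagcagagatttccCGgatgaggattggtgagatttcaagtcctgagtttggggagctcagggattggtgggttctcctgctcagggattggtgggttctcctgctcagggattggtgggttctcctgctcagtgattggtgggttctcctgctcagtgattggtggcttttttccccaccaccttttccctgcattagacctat
4933406D12Rik: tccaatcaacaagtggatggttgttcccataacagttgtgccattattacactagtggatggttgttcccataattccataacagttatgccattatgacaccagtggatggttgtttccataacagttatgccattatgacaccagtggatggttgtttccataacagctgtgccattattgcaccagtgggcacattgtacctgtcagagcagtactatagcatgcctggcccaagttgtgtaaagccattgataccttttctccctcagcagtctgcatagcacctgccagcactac

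Motifs were searched on both strands as exact letters, with position 0 at the start base. GGGCGG, the core bound by Sp1-type factors, matched 5 times in the 4932412D23Rik promoter and 2 times in that of 1700020I14Rik. CCAAT matched 7 times in the promoter of 1700048O20Rik (positions -208 to 4), 3 times in that of 4932412D23Rik and 2 times in that of 1700020I14Rik. Meg3 had TATAAA at -34 and -30 and TGACGTCA, the full cyclic AMP response element, at -62. Over all 51229 autosomal promoters of this length, GGGCGG was held by 23.6%, CCAAT by 38.2%, TATAAA by 17.2%, TGACGTCA by 1.31% and CACGTG by 5.51%. A match says only that these letters are present.

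At P7 each mark was found at a small share of the isolated lincRNA promoters. A gene was counted in a list when a peak summit fell within 3000 bp of one of its starts. At P7, H3K4me3 summits were found at 7.01% and 6.33% of the isolated lincRNA genes in the 2 libraries, H3K27ac at 6.55% and 6.24%, H4R3me2a at 6.22%, 6.18% and 5.74%, H3R2me2a at 7.17% and 8.75%, H3R8me2a at 4.53% and 4.70%, H4R3me1 at 7.32% and 9.21%, and H4R3me2s at 6.92% and 11.3%. All these shares lay well under those of the 20807 autosomal coding genes in the same libraries. The gap was largest for H3K4me3, at 63.2% ± 0.632 of coding genes against 6.67% ± 0.482 of isolated lincRNA genes (SD, n = 2). It was smallest at P7 in H4R3me2a (20.8% ± 0.750 against 6.05% ± 0.267, SD, n = 3).

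Over both ages, the share of isolated lincRNA genes fell below that of coding genes in every WT library of every mark. The difference, paired within libraries, was -56.3 points for H3K4me3, -38.1 for H3K27ac, -29.9 for H3R2me2a, -27.3 for H4R3me2s, -27.0 for H3R8me2a, -24.7 for H4R3me2a and -23.8 for H4R3me1. The exact sign permutation test (2-sided) gave p = 0.031 for H4R3me2a (6 libraries), p = 0.062 for H4R3me2s (5 libraries) and p = 0.125 for the other marks (4 libraries), each the smallest p that number of libraries allows, and 0.125 for all 7 after adjustment. Coding windows covered 9.61% of the autosomes, more per gene than those of the isolated lincRNA genes, and this was not adjusted for. The 660 lincRNA genes with a start at most 5000 bp from a coding start had H3K4me3 at a mean of 64.0% at P7, near the 63.2% of coding genes. Their windows can hold the peak of the coding start itself, so this share cannot be assigned to the lincRNA starts.

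Isolated lincRNA windows held little more than their share of the summits. Relative to the 1.19% of the autosomes that they cover, they held 1.54 times as many H3K4me3 summits at P7, against 8.50 times for coding windows. For the arginine marks the ratio was 1.20 to 1.57 at P7 in WT and 1.41 to 1.70 at P14. Libraries of one mark had a smaller share of isolated lincRNA genes in common than of coding genes. Of the isolated lincRNA genes found in any P7 H3K4me3 list, 69.6% were in both, against 95.2% of coding genes. For H3K27ac the values were 28.5% and 65.1%. For the arginine marks only 10.8% to 21.97% of the genes in any P7 list were in 2 or more, against 29.3% to 38.3% of coding genes. The results below therefore call a gene marked only when at least 2 lists of the age held it, at the same peak or at different ones.

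**Figure D1:**
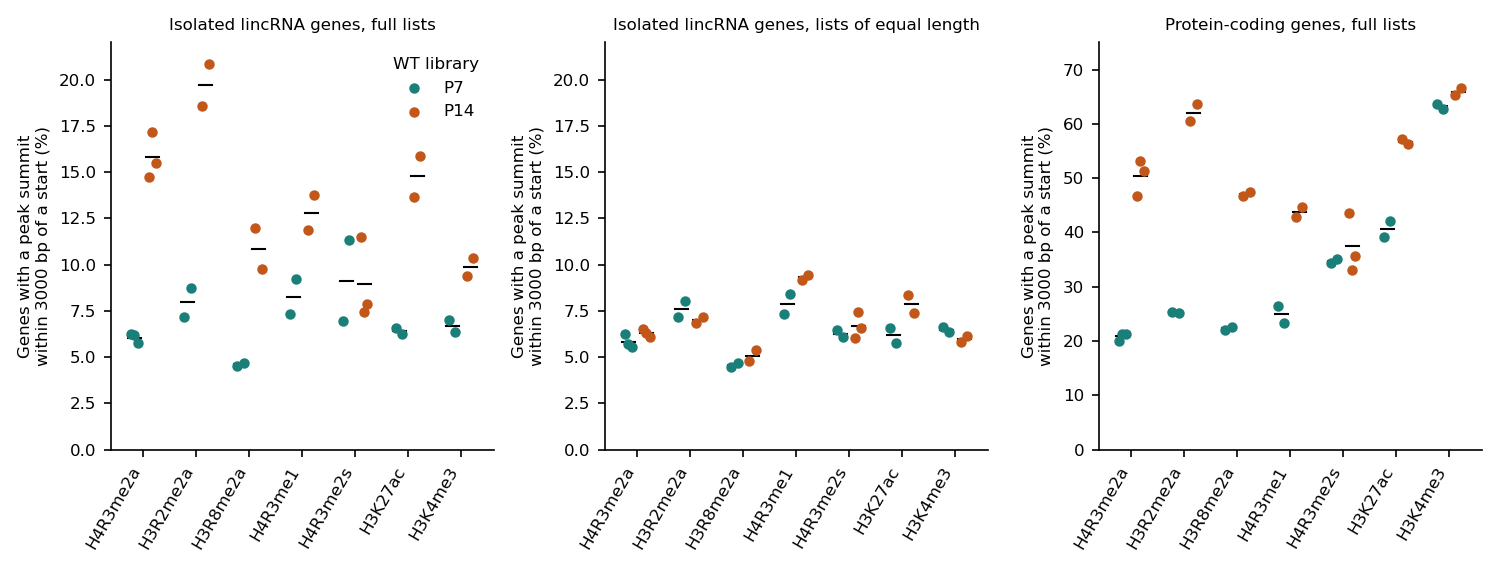
Share (percent) of genes with a peak summit within 3000 bp of a start, 1 point per WT library and a bar at the mean, P7 in green and P14 in orange, for isolated lincRNA genes with the full lists (left) and with every list of a mark cut to the shortest (middle) and for coding genes (right, other scale). For 6 of the 7 marks the P14 points of the full lists lie above all P7 points, and at equal list length H4R3me2a lies between 5.52% and 6.53% at both ages.

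By the marked rule, 4036 of the 4549 genes (88.7%, coding 34.0%) carried no mark at P7 in WT. H3K4me3 led with 249 genes (5.47%, coding 61.7%), followed by H4R3me2a with 143 (3.14%, coding 16.1%), H3K27ac with 129 (2.84%, coding 32.0%), H4R3me1 with 106 (2.33%, coding 11.4%), H3R2me2a with 92 (2.02%, coding 11.5%), H4R3me2s with 81 (1.78%, coding 18.6%) and H3R8me2a with 54 (1.19%, coding 10.2%). H4R3me2a had 3 lists to agree in and the others 2. A single mark was carried by 322 genes, 2 marks by 109 and 3 by 46. All 7 marks were at 6 genes (0.132%, against 1.24% of coding genes), namely 4932412D23Rik, Gm10010, Gm33838, Gm47882, Gm42418 and AY036118. Gm13166, Gm37494 and Gm26917 carried 6.

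The promoter of 4932412D23Rik, printed above, had a peak in all 33 lists. Its H3K4me3 summits lay 609 and 784 bp from a start at P7 and 55 and 26 bp from one at P14. Its H4R3me2a peaks reached -log10 p values of 4.63, 3.83 and 6.94 at P7 and of 9.69, 13.1 and 12.5 at P14, without overlap of the ages. The ages overlapped in H4R3me1 (9.67 and 8.21 against 13.3 and 7.12), H4R3me2s (7.55 and 11.1 against 7.98, 8.996 and 11.4) and H3K4me3 (25.4 and 22.9 against 22.3 and 34.2). These p-values come from lists of different length and unknown depth. Its RNA was nearly absent, with 49 and 0 counts in the sorted WT libraries and 2, 4 and 0 in WT testis.

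Gm33838 had a peak in all 33 lists, among the 3 strongest of its list in 31 of them, with -log10 p from 180 to 223 in the arginine lists. Its summits lay 2163 to 2222 bp from the start, and no read was counted for it in any RNA library. Gm47882, Gm26917, Gm42418 and AY036118 also had peaks for every antibody, which ranked from 95 to 1162 in the arginine lists but lower in those of H3K4me3 (9195 to 13271 for Gm47882, 8810 to 11338 for Gm26917, and 6855 to 9190 for Gm42418 and AY036118). The last 3 neighbour each other on chromosome 17 between 39843013 and 39848788, share peaks there, and are not in the expression tables. Whether these peaks follow the antibody was not tested, and without these 5 genes no age difference below changed direction.

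H3K4me3 sat near the annotated start. The median distance from summit to start was 341 and 322 bp in the P7 libraries and 339 and 356 bp at P14, and 70.9% to 78.1% of the genes with a summit had it within 1000 bp. The summits ranked lower in their lists than average, at a median rank of 60.05% to 65.1% of the list by p. At 1700020I14Rik the H3K4me3 peaks had -log10 p of 48.7 and 38.6 at P7 and 57.8 and 52.4 at P14. Meg3 had weaker ones, with 7.67 and 6.83 at P7 and a peak in only 1 of the P14 lists (6.54).

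The other marks were more frequent where H3K4me3 was present. At P7, H3K27ac marked 84 of the 249 genes with H3K4me3 (33.7%) and 39 of the 4191 genes in no H3K4me3 list (0.931%). H4R3me2s marked 17.7% and 0.811%, H4R3me2a 10.8% and 2.62%, and H3R2me2a 12.4% and 1.41%. Coding genes also had the higher shares where H3K4me3 was present, such as 50.7% and 1.61% for H3K27ac. These values are a description without a test. Read from the other side, a larger share of marked isolated lincRNA genes than of marked coding genes lay in no P7 H3K4me3 list. So did 4191 of all 4549 isolated lincRNA genes and 7327 of the 20807 coding genes, marked or not. Of the 143 genes with H4R3me2a at P7, 76.9% were in no H3K4me3 list, against 7.65% of coding genes with H4R3me2a. The same share was 64.1% for H3R2me2a (coding 6.87%), 63.2% for H4R3me1 (7.86%), 27 of 54 genes for H3R8me2a (5.20%), 42.0% for H4R3me2s (3.90%) and 30.2% for H3K27ac (1.77%).

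CpG content was higher at the promoters with H3K4me3 in both P7 lists than at those in no list, but 153 of the 249 were not CpG-rich. A promoter was called CpG-rich when its CpG observed/expected ratio was above 0.6 and its GC content above 50%. Of all isolated lincRNA promoters 174 (3.83%) were CpG-rich, against 42.2% of coding promoters, and their median observed/expected ratio was 0.21. Sequence was that of the 5′-most start only, while a mark could lie at any start of the gene. With H3K4me3 in both P7 lists the share was 38.6% (96 of 249), with H3K4me3 in no P7 list 1.60%. Seen the other way, 55.2% of the CpG-rich genes and 3.50% of the others had H3K4me3 at P7. GGGCGG, a CpG-containing word, was held by 39.8% of the promoters with H3K4me3 and by 6.06% of those without, while TATAAA was held by 10.4% and 17.9%, and CCAAT by 39.4% and 37.9%. TGACGTCA, as in the Meg3 promoter, was held by 4.42% and 0.549%. Because GC content differs between these sets, the shares of these words cannot be told apart from it.

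**Figure D2:**
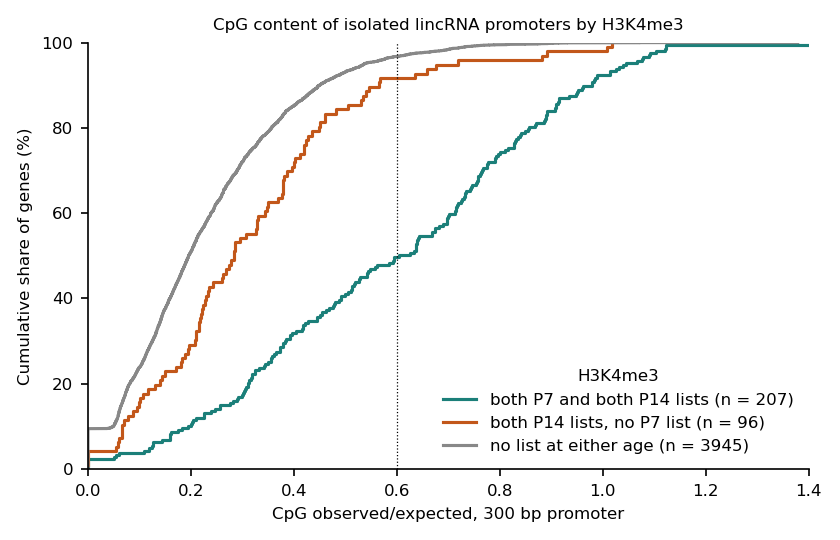
Cumulative share (percent) of isolated lincRNA genes against the CpG observed/expected ratio of the 300 bp promoter, for genes with H3K4me3 in both lists of both ages (green, n = 207), in both P14 lists and no P7 list (orange, n = 96) and in no list (grey), with the 0.6 limit dotted. The green curve lies far to the right, and the orange curve stays close to the grey one.

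From P7 to P14 more isolated lincRNA genes had a peak in 6 of the 7 marks. The mean share was 7.96% at P7 and 19.7% at P14 for H3R2me2a (difference 11.7 points), 6.05% and 15.8% for H4R3me2a (9.75), 6.40% and 14.8% for H3K27ac (8.36), 4.62% and 10.9% for H3R8me2a (6.24), 8.27% and 12.8% for H4R3me1 (4.54) and 6.67% and 9.85% for H3K4me3 (3.18). In these 6 marks no P14 library overlapped a P7 library. H4R3me2s did overlap, at 6.92% and 11.3% at P7 and 11.5%, 7.43% and 7.85% at P14 (difference -0.209 points), and the peak names in its 3 P14 lists carry another day number than the labels. With so few libraries the exact permutation test (2-sided) could not pass 0.05. This exact test gave p = 0.1 for H4R3me2a, the smallest that 3 against 3 allows, p = 0.333 for the 5 marks with 2 against 2, also the smallest, and p = 1 for H4R3me2s. Adjusted over the 7 marks the values were 0.389 and 1.

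In the same 6 marks the P14 lists were also longer than the P7 lists, while H4R3me2s had 19981 and 36145 peaks at P7 and 33814, 18423 and 22256 at P14. The read depth behind the lists is unknown. When every list of a mark was cut to the length of its shortest by p-value, the differences shrank to 1.69 points for H3K27ac, 1.44 for H4R3me1, 0.506 for H3R8me2a and 0.476 for H4R3me2a. Those of H3R2me2a (-0.594), H3K4me3 (-0.495) and H4R3me2s (0.410) changed sign. Coding genes, treated in the same way, stood at 20.2% at P7 and 33.7% at P14 for H4R3me2a, 24.4% and 41.9% for H3R2me2a, 22.2% and 33.0% for H3R8me2a, 24.0% and 37.7% for H4R3me1, 28.3% and 32.4% for H4R3me2s (with overlap between libraries), 40.0% and 48.6% for H3K27ac and 63.0% and 60.7% for H3K4me3. The contrast between gene classes was not tested.

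Single genes that gained a mark were called when at least 2 P14 lists and no P7 list held them. H3K4me3 was gained by 96 isolated lincRNA genes (2.11%), against 1.89% of all autosomal genes and 1.96% of coding genes, and lost by 16 (0.352%, all genes 0.31%). This share is near the background. For the other marks the gained share lay under that of all genes. It was 6.62% for H4R3me2a (all genes 12.1%), 5.91% for H3R2me2a (13.2%), 3.19% for H3K27ac (4.91%), 2.62% for H4R3me1 (5.84%), 2.11% for H4R3me2s (4.37%) and 1.98% for H3R8me2a (7.41%). Few genes lost a mark (at least 2 P7 lists and no P14 list), at 0.594% for H4R3me2a (all genes 0.586%), 0.594% for H4R3me2s (1.09%), 0.572% for H4R3me1 (0.671%), 0.33% for H3R2me2a (0.197%), 0.22% for H3R8me2a (0.394%) and 0.198% for H3K27ac (0.283%).

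The share of genes marked at P7 that were also marked at P14 was a description without a test. H3K4me3 was still called at P14 for 207 of the 249 genes (83.1%, coding 97.9%), H3K27ac for 73.6% (95.1%), H4R3me2a for 60.8% (86.6%), H3R8me2a for 61.1% (80.6%), H3R2me2a for 57.6% (91.4%), H4R3me2s for 45.7% (77.5%) and H4R3me1 for 33.0% (71.7%). At P14, 348 genes carried H3K4me3 (7.65%, coding 64.0%), 533 H4R3me2a (11.7%, coding 51.1%), 479 H3R2me2a (10.5%, coding 53.4%), 341 H3K27ac (7.50%, coding 49.8%), 241 H4R3me1 (5.30%, coding 31.4%), 218 H4R3me2s (4.79%, coding 35.8%) and 187 H3R8me2a (4.11%, coding 34.5%). All 7 marks were at 24 genes (0.528%, coding 16.7%) and none at 3430 (75.4%, coding 26.2%). Malat1, Mir17hg (the host of a microRNA cluster) and Lncpint reached 7 marks at P14 from 4, 2 and 2 at P7. Some of these marks rest on different peaks in the lists. The strongest P14 H3R8me2a peaks of Lncpint had summits at 31217112 and 31090283 on chromosome 6. The strongest P14 H3R2me2a peaks of Malat1 had them at 5794111 and 5803420 on chromosome 19.

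The 10 genes with the strongest gained H3K4me3 were 4933406D12Rik, C130026L21Rik, Gm42654, Gm40323, Gm34853, Gm39397, Gm48223, Gm34256 and the neighbours Gm47960 and AC166902.1, which share a peak. Their promoters were poor in CpG. Among all 96 gained genes 3 (3.12%) were CpG-rich, against 44.4% of the genes with H3K4me3 at both ages and 19.1% of coding genes that gained it. In 4933406D12Rik the P14 summits lay 991 and 1019 bp from the start, with -log10 p of 23.2 and 17.6, and no RNA was counted in any library. None of the 10 exceeded 11 counts in any library, but all RNA was from P7, so that their RNA at P14 was not measured. Those that lost H3K4me3 were led by Gm26678, Gm15409, 4833413E03Rik and the pair Gm31294 and AC121263.1, which share a peak.

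H4R3me2s was the only mark measured in both genotypes. Isolated lincRNA genes had a summit at 6.92% and 11.3% in WT and at 11.2% and 9.34% in Prmt1-dKO, so that the mutant values lay within the WT range (difference 1.12 points, exact permutation p = 1, where 0.333 is the smallest possible). At equal list length they stood at 6.92% and 6.70% in WT and 6.81% and 5.85% in the mutant (difference -0.484, exact p = 0.667). Coding genes stood at 34.4% and 35.0% in WT and at 28.6% and 24.1% in the mutant (exact p = 0.333), with no overlap. The list lengths were 19981 and 36145 in WT and 33941 and 28221 in Prmt1-dKO.

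By gene, 44 isolated lincRNA genes (0.967%) were in both WT lists and no mutant list, against 3.46% of all autosomal genes and 5.79% of coding genes, and 44 were in both mutant lists and no WT list, against 1.3% and 2.0%. Only 16 (0.352%) were in all 4, against 4.72% of coding genes. Equal list length left 37 WT-only genes (0.813%, coding 5.87%) and 19 mutant-only genes (0.418%, coding 1.23%). By mean -log10 p the WT-only genes were led by Gm44110 (12.5 and 2.49), Gm10010 (8.50 and 4.30), Gm30124, Gm10685 and 1700020I14Rik (5.35 and 5.52). The rule counts a gene also where the lists hold different peaks. At Gm10010 the summits lay 205 and 140 bp from a start in peaks that overlap, but at Gm44110 they lay 2669 and 197 bp away and at 1700020I14Rik 136 and 2032 bp, in peaks that do not. 1700020I14Rik, Gm10010 and Gm30124 had H4R3me2s in the 3 P14 lists as well, Gm10685 in 2 and Gm44110 in 0. The mutant-only genes were led by Gm47235 (5.53 and 4.11), Gm49700, Gm31946, Gm38064 and 1700063D05Rik. Their mutant peaks overlapped at Gm49700 and 1700063D05Rik and did not at Gm47235, Gm31946 and Gm38064. In WT at P14, Gm49700 was in all 3 H4R3me2s lists, Gm47235 in 2 and 1700063D05Rik in 1. With 2 lists a side these patterns carry no test.

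Isolated lincRNA genes gave little of the RNA. The expression tables held 4419 of them, and 2373 (53.7%) had no count in any of the 10 libraries, against 12.5% of coding genes. A TPM (a level scaled for transcript length and library size) of at least 1 was reached by 210 and 176 genes in the sorted WT libraries and by 213, 208 and 205 in WT testis. As shares of the genes tabled these were 4.75% and 3.98%, and 4.82%, 4.71% and 4.64%, against 49.0% to 63.1% of coding genes in the same libraries. Over the 10 libraries the share lay 54.2 points under that of coding genes and 11.7 points under that of the lincRNA genes near a coding start, in every library (exact sign permutation p = 0.00195 for each, the smallest that 10 libraries allow). By mean TPM of at least 1, 249 genes were expressed in WT sorted cells and 204 in WT testis, with 110 in both (44.2% of the first and 53.9% of the second). Sorted cells and testis differ in assay as well as in cells, and these cannot be told apart.

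Together the genes made up 0.60% to 0.617% of all TPM in sorted WT and 0.431% to 0.449% in WT testis. A few carried most of it. In the sorted libraries the top 2 gave 58.2% to 64.1% of the sum and the top 10 gave 73.6% to 76.6%. Malat1, a nuclear-retained RNA expressed in most tissues, led with 2697 and 2329 TPM in sorted WT and stood at 116, 120 and 92.9 TPM in WT testis. Gm10076 followed with 1190 and 1160 TPM in sorted WT and led in WT testis at 1066, 1024 and 1193, but its transcript is 99.5% identical over its whole length to Rpl41, a ribosomal protein gene, and its level is therefore uncertain. The next in sorted WT were 1700018B24Rik (185 and 211 TPM), 1700048O20Rik (161 and 180), 1810058I24Rik (114 and 131) and 1700020I14Rik (102 and 140). All of these stood far apart from the median gene, which had no count.

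Whole testis had its own leaders. Meg3, an imprinted maternally expressed RNA, stood at 497, 449 and 470 TPM in WT testis and at 0.050 and 0 in sorted WT cells. H19, imprinted and abundant in fetal tissue, stood at 386, 357 and 410 TPM in testis and at 12.5 and 14.7 in sorted cells. Gm2044, whose exons overlap the microRNA gene Mir202, stood at 213, 178 and 233 TPM in testis and at 0 in both sorted WT libraries. Snhg6, a host of small nucleolar RNAs, was abundant in both (150, 154 and 168 TPM in testis, 40.6 and 66.5 in sorted WT). These levels differ between assays without overlap for Meg3, H19 and Gm2044.

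Expression was more frequent with H3K4me3. In sorted WT 31.6% and 26.1% of the genes with H3K4me3 in both P7 lists reached a TPM of 1, against 3.11% and 2.57% of the genes in no P7 list. In WT testis the values were 41.0%, 41.0% and 39.7% against 2.67%, 2.57% and 2.55%. A single P7 list went with 8.74% and 9.71% in sorted WT. Genes with both H3K4me3 and H3K27ac at P7 reached 51.9% and 41.6% in sorted WT and 58.4%, 57.1% and 54.5% in testis, and genes with H3K4me3 but no H3K27ac list reached 17.2% and 14.1%, and 28.3%, 30.3% and 28.3%. Coding genes with H3K4me3 stood at 78.3% and 74.1% in sorted WT and at 91.1% to 91.4% in testis. Seen from the RNA, 33.7% of the 249 genes expressed in sorted WT (84) and 46.1% of the 204 in testis (94) had H3K4me3 in both P7 lists, against 92.1% and 89.3% of expressed coding genes.

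Of the 103 genes expressed in WT testis in no P7 H3K4me3 list 0.971% were CpG-rich, near the 1.60% of all 4191 genes in no such list, expressed or not. Of the 94 expressed with H3K4me3 41.5% were CpG-rich, and of all 249 with it 38.6%. 1700048O20Rik, with 1 CpG in the 300 bp printed above, had H3K4me3 summits at P7 that lay 94 and 113 bp from another of its annotated starts, downstream of the printed promoter. Gm12031, at 39.7 and 49.9 TPM in sorted WT, carried no mark at either age. A CpG-rich promoter went with expression in 25.5% of genes in sorted WT and 24.8% in testis, against 4.87% and 3.83% of the others.

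**Figure D3:**
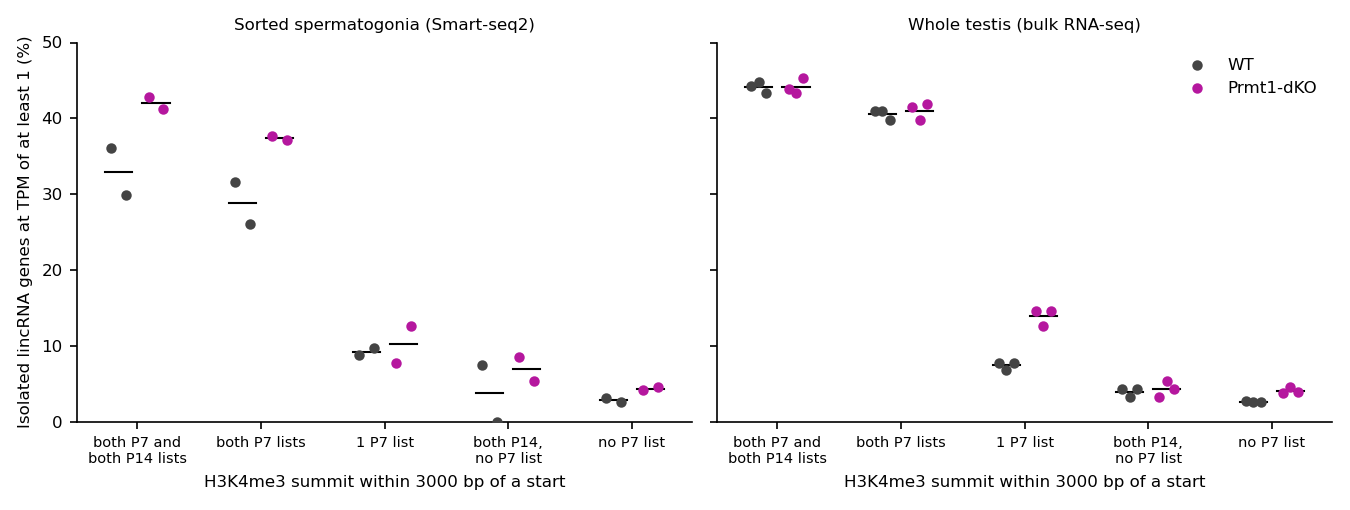
Share (percent) of isolated lincRNA genes with a TPM of at least 1 by the H3K4me3 lists that hold them, 1 point per library and a bar at the mean, WT in grey and Prmt1-dKO in magenta, for sorted cells (left) and whole testis (right). Genes in both P7 lists lie between 26.1% and 41.9% and genes in no P7 list between 2.55% and 4.61%.

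Prmt1 itself, the deleted gene, stood at 237, 219 and 247 CPM in WT testis and 146, 199 and 158 in Prmt1-dKO (log2 fold change -0.49, SE 0.13, edgeR adjusted p = 0.033), and at 216 and 149 against 112 and 86.5 CPM in sorted cells (-0.88, SE 0.26, adjusted p = 0.133). Library totals ran from 12396317 to 18547078 expected counts, and more genes had a count in the mutant (20194 to 24487) than in WT of the same assay (15587 to 17106 sorted, 22341 to 22555 in testis). In testis the summed TPM of 6 Leydig cell markers was 624 to 724 in WT and 164 to 185 in the mutant (4 of 6 lower by the test), that of 8 Sertoli markers 2101 to 2340 and 1034 to 1269 (1 of 7 tested), that of 5 peritubular myoid markers 827 to 900 and 290 to 507 (3 of 5), and that of 10 germ cell markers 1491 to 1754 and 1390 to 1455 (0 of 10). The testis libraries are labelled spermatogonia but were described as whole-testis RNA, and all of these somatic lists were present in them. In sorted cells all 6 macrophage markers were at 0 in WT and summed to 29.1 and 34.7 TPM in the mutant (1 of 6 at 0), while the germ cell markers summed to 1448 and 1429 TPM in WT and to 1799 and 1777 in the mutant, without overlap. Sertoli markers summed to 157 and 130 in WT and 119 and 185 in the mutant, and Leydig markers to 6.97 and 0.12 and to 4.74 and 8.13. Fewer cells of a type and less RNA per cell cannot be told apart in such samples, and the part of these shifts in the results below was not tested.

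More isolated lincRNA genes were detected in Prmt1-dKO testes. A count was found for 806 ± 28.0 genes in WT and 1084 ± 52.7 in the mutant, and a TPM of at least 1 for 209 ± 4.04 and 277 ± 11.2 (SD, n = 3 each), with no overlap (exact permutation p = 0.1 for each, the smallest possible). The sorted libraries showed 379 and 314 genes with a count in WT and 714 and 593 in the mutant (exact p = 0.333, the smallest possible). Genes in no P7 H3K4me3 list stood at 2.67%, 2.57% and 2.55% at a TPM of at least 1 in WT testis and 3.85%, 4.51% and 3.92% in the mutant, without overlap. Genes with H3K4me3 in both P7 lists stood at 41.0%, 41.0% and 39.7% in WT and 41.5%, 39.7% and 41.9% in the mutant, with overlap. In sorted cells the genes with H3K4me3 in both P7 lists stood at 31.6% and 26.1% in WT and 37.6% and 37.2% in the mutant, and those in no P7 list at 3.11% and 2.57% against 4.14% and 4.61%, without overlap in either class. Coding genes in no P7 list showed the same direction without overlap, at 14.7%, 14.7% and 14.8% in WT testis and 16.8%, 18.0% and 16.9% in the mutant, and at 8.07% and 7.21% against 11.2% and 12.4% in sorted cells. Whether the change differed between any of these classes was not tested.

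edgeR's quasi-likelihood test, fitted over all genes, called 55 isolated lincRNA genes higher (24.7%) and 4 lower (1.79%) in Prmt1-dKO testes (adjusted p under 0.05 and at least 2-fold), out of 223 with enough counts. The same calls were made for 5.32% of all 16554 genes tested in the higher direction and 1.78% in the lower. The median log2 fold change was 0.52 over the 223 genes and 0.02 over all genes. Because a gene that is high only in the mutant passes the count filter through the mutant, the same fit was also made for all 1832 isolated lincRNA genes with any count, where 158 were called higher (8.62%, all genes 5.95%) and 8 lower (0.437%, all genes 1.26%). DESeq2, also without a filter, called 116 higher (6.33%, all genes 4.62%) and 3 lower (0.164%, all genes 0.998%). Most of the 55 had low counts, and 5 were at 0 in all WT libraries, led by 2810404F17Rik with 21, 50 and 21 counts in the mutant (at least 35.5-fold higher, against 3 counts summed over WT). Exons of 19 of the 55 overlap another annotated gene.

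By mean count, the calls are given for genes that passed the filter, some of them through the mutant libraries. With a mean under 50 counts 45 of 160 genes were higher (28.1%, all genes 17.2%), from 50 to under 100 counts 2 of 18 (all genes 9.44%), and from 100 counts 8 of 45 (17.8%, all genes 1.21%). These 8 were Gm2044, AU020206, Snhg6, Gm16973, Snhg20, Snhg12, Zfp469 and Epb41l4aos. Every mutant library lay above every WT library for 95 of the 223 genes (42.6%, all genes 20.9%) and below for 20 (8.97%, all genes 19.9%). Of the 55 genes 13 (23.6%) had H3K4me3 in both P7 lists, against 39.5% of the 223 tested. H4R3me2a was called at 1 of them (1.82%, against 11 of the 223, 4.93%) and WT H4R3me2s at 4 (7.27%, against 23, 10.3%). Of the 55 genes 45 had a mean under 50 counts, as did 160 of the 223. The shares with a mark were not matched for count and not tested.

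**Figure D4:**
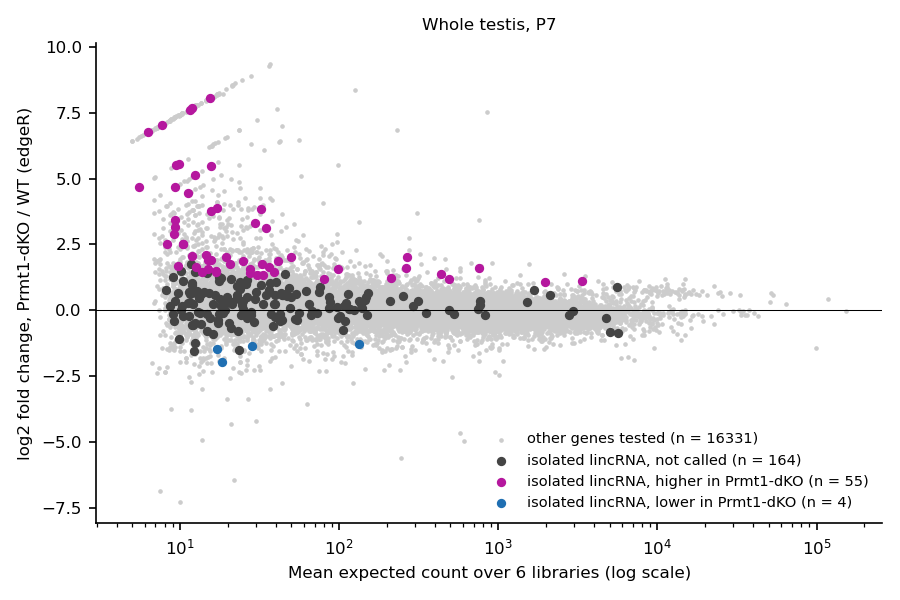
log2 fold change of Prmt1-dKO over WT testes against the mean expected count over 6 libraries (log scale), for isolated lincRNA genes called higher (magenta, n = 55), lower (blue, n = 4) or neither (dark grey, n = 164) and for all other genes tested (light grey). Most magenta points lie under 100 counts, and 8 lie above it.

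Snhg6, Snhg12 and Snhg20, hosts of small nucleolar RNAs, all rose. Snhg12, whose promoter is printed above, went from 22.3, 28.1 and 31.3 TPM in WT testis to 71.9, 58.6 and 84.5 in the mutant (log2 fold change 1.60, SE 0.19, edgeR adjusted p = 0.00173). Snhg20 went from 64.7, 59.5 and 69.2 to 155, 156 and 140 TPM (1.39, SE 0.14, adjusted p = 0.00115), and Snhg6 from 150, 154 and 168 to 319, 258 and 339 (1.17, SE 0.15, adjusted p = 0.00192). None of these groups overlapped. Each overlaps an exon of another annotated gene, snoRNA genes in Snhg12 and the coding gene Mcmdc2 in Snhg6, and the strand used in counting is not given in the sources used here.

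Among the other well counted genes, Epb41l4aos, named as an opposite-strand transcript of Epb41l4a, had the largest change, from 76.1, 71.9 and 67.8 TPM to 207, 229 and 280 (2.02, SE 0.20, adjusted p = 0.000949). Gm2044 went from 213, 178 and 233 to 379, 395 and 386 TPM (1.07, SE 0.15, adjusted p = 0.0026), and AU020206 from 89.8, 88.9 and 84.2 to 180, 132 and 203 (1.09, SE 0.12, adjusted p = 0.00133). Both sat just above the 2-fold limit, without overlap of the genotypes.

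Other isolated lincRNA genes changed by less than 2-fold. Meg3 went from 497, 449 and 470 to 868, 909 and 848 TPM in testis (0.89, SE 0.11, adjusted p = 0.00177). H19 went the other way, from 386, 357 and 410 to 182, 217 and 190 TPM (-0.87, SE 0.15, adjusted p = 0.00528). Malat1 was lower, at 116, 120 and 92.9 against 105, 57.9 and 47.2 TPM (-0.84, SE 0.18, adjusted p = 0.0127), with overlap in TPM. Neat1, the RNA scaffold of paraspeckles, was higher, at 52.8, 56.7 and 58.4 against 82.8, 54.7 and 92.8 TPM (0.59, SE 0.14, adjusted p = 0.0223), also with overlap.

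Of 24 isolated lincRNA genes on a list of RNAs with a published name, 16 had enough counts in testis. Of these 7 were called higher (the 3 snoRNA hosts, Gm2044, Epb41l4aos, Rmst and Bvht) and 0 lower, against 5.32% and 1.78% of all genes tested, and 17.2% higher of all those with a mean under 50 counts. Meg3 and Neat1 were higher and H19 and Malat1 lower under 2-fold, and 5 passed no threshold. The median of the 16 log2 fold change was 0.74, against 0.02 over all genes tested. Rmst, known from neural development, had 16, 22 and 21 counts in WT and 53, 74 and 63 in the mutant (1.87, SE 0.29, adjusted p = 0.0038), and shares its whole transcript with Gm26700. Bvht, known from heart development, had 4, 7 and 14 counts against 17, 26 and 22 (1.55, SE 0.47, adjusted p = 0.0493), and so has few counts in WT. Mirg, which like Meg3 lies in the imprinted cluster on chromosome 12, stood at 18.3, 14.9 and 18.2 against 18.3, 21.6 and 15.7 TPM, and did not pass the test.

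The largest changes among genes with a mean of at least 20 counts were at low levels. B830012L14Rik, which lies between Meg3 and Mirg, had 4, 3 and 7 counts in WT and 46, 86 and 49 in the mutant (3.86, SE 0.48, edgeR adjusted p = 0.00196). Gm14005 had 6, 2 and 10 against 51, 63 and 45 counts (3.30, SE 0.48, adjusted p = 0.00303), though its exons overlap Gm14009 and Gm14012, and Gm15675 had 10, 3 and 10 against 58, 42 and 85 (3.12, SE 0.43, adjusted p = 0.00256), with an overlap with Gm15674. Each of these carried 0 marks at P7. The others named by the same rule (AC160336.1, Gm48653, Gm26901, 6030469F06Rik and AC102496.1) rose by 1.64 to 2.01 on the log2 scale.

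The 4 genes called lower by at least 2-fold were Gm39090, Gm40614, A330094K24Rik and E330035G20Rik, but leaving out WT replicate 1, 2 or 3 left only 1 gene called lower each time. E330035G20Rik had 185, 182 and 217 counts in WT and 73, 46 and 98 in the mutant (-1.28, SE 0.21, edgeR adjusted p = 0.00472). A330094K24Rik had 45, 44 and 37 against 20, 11 and 13 (-1.34, SE 0.33, adjusted p = 0.023). Neither had a count in the mutant sorted cells, and E330035G20Rik had 49 counts in 1 of the sorted WT libraries.

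In sorted cells the same edgeR test called 0 of 294 isolated lincRNA genes, and 0% of all 16443 genes tested. In counts simulated with the spread of these libraries it recovered 0 of 100 2-fold changes and 31 of 100 4-fold changes, so a missing call does not show a missing change. At an unadjusted edgeR p under 0.05, 80 of the 294 were higher (all genes 13.8%) and 7 lower (all genes 4.12%), and the smallest adjusted p was 0.0774. Both mutant libraries lay above both WT libraries for 130 of the 294 (44.2%, all genes 36.3%) and below for 33 (11.2%, all genes 20.3%). Here too a gene that is high only in the mutant passes the count filter through the mutant and lies above by construction. These shares were not taken without the filter. DESeq2, run as an alternative on 940 genes, called 24 higher (2.55%, all genes 5.05%) and 4 lower (0.426%, all genes 2.71%), and 15 of the 24 were at 0 in both WT libraries.

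Of the genes called by DESeq2 in sorted cells, 4921531P14Rik went from 0 and 0 to 286 and 81 counts (DESeq2 adjusted p = 1.77e-05, edgeR 0.0774). 4930455M05Rik went from 0 and 0 to 100 and 117 counts, and C030034L19Rik, 90.0% of whose transcript matches Zfp704, from 0 and 0 to 133 and 43. Meg3 went from 1 and 0 to 199 and 84 counts (depth-scaled ratio 316, 95% counting interval 56.2 to 12510). Snhg20, also higher in testis, had 93 and 88 counts in sorted WT and 322 and 232 in the mutant (DESeq2 log2 fold change 1.88, SE 0.63, adjusted p = 0.024). Snhg12 had 0 and 2 against 64 and 57 counts (ratio 67.5, interval 18.3 to 563). In each case both mutant libraries lay above both WT libraries. Macrophage markers were found in the same 2 mutant libraries and not in WT, as given above. All 5 endothelial markers were also at 0 in sorted WT and summed to 1.09 and 1.04 TPM in the mutant, and 5 peritubular myoid markers summed to 7.95 and 4.61 TPM in WT and to 3.76 and 4.06 in the mutant.

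The 4 genes lower by DESeq2 were C78859, Gm47113, B930059L03Rik and D930016D06Rik. D930016D06Rik had the most counts, at 42.8 and 33.1 TPM in WT and 14.7 and 16 in the mutant (log2 fold change -1.05, SE 0.22, DESeq2 adjusted p = 5.24e-05, edgeR 0.0774). C78859 went from 267 and 294 to 31 and 8 counts (-3.60, SE 0.995, DESeq2 adjusted p = 0.0045). B930059L03Rik, with 4 marks at P7 and 7 at P14, went from 353 and 527 to 89 and 110 counts. In testis D930016D06Rik showed 8.47, 9.92 and 7.41 against 11.1, 7.26 and 11.2 TPM, with overlap.

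**Figure D5:**
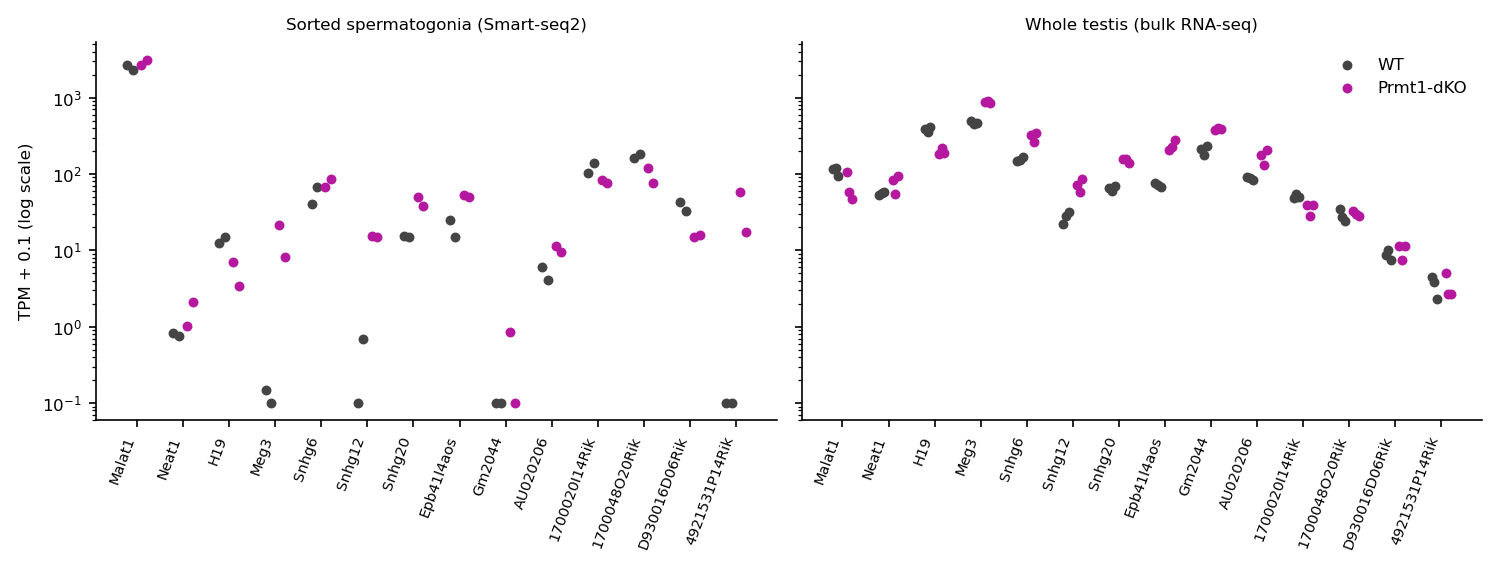
TPM plus 0.1 (log scale) of 14 named isolated lincRNA genes, 1 point per library, WT in grey and Prmt1-dKO in magenta, in sorted cells (left) and whole testis (right). Snhg12, Snhg20 and Epb41l4aos lie higher in the mutant in both panels, H19 lower in both, and Malat1 spans 47.2 to 3138 TPM.

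Other genes abundant in sorted cells had no call in either assay. 1700020I14Rik, with H4R3me2s in both WT lists and no mutant list, stood at 102 and 140 TPM in sorted WT and at 82.5 and 75.9 in the mutant (log2 fold change -0.39, SE 0.23, edgeR adjusted p = 0.415), and at 48.8, 54.3 and 49.1 against 38.8, 28.2 and 39.5 TPM in testis (-0.17, SE 0.15, adjusted p = 0.461). The groups did not overlap in TPM in either assay, but in the testis counts that were tested they did (3019, 3339 and 2946 against 2433, 1722 and 3316, or 197 ± 10.6 against 175 ± 36.7 CPM, SD, n = 3 each), and neither difference passed the test. Gm10010, also in both WT lists only, had 146 and 670 counts in sorted WT and 91 and 259 in the mutant, with overlap, and 14, 24 and 18 against 8, 2 and 7 in testis (-1.54, SE 0.48, adjusted p = 0.0517).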

How the data were processed

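Members and gene lists were chosen with earlier results of these data known. The authors mapped CUT&Tag reads to mm10 and called peaks per sample with MACS2 2.1.0 (H3K4me3 by q-value, the other marks by p-value). Each deposited list gives a summit, a fold enrichment ratio and -log10 p-value and q-value columns. Read depth of the lists is unknown. The deposited RNA tables hold RSEM expected counts and TPM values, made by the authors after fastp trimming. Expected counts were rounded to whole numbers. The deposited TPM values were used as levels without a pseudocount. A gene was in a list when a summit lay within 3000 bp of a start, with starts and sequence from GENCODE vM21 and the GRCm38 genome. Of 55401 gene IDs in the tables, 55141 matched. Shares were compared over libraries with exact permutation tests (scipy 1.17.1, Python 3.11.15).

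RNA was tested with edgeR 4.0.16 (R 4.3.3, TMM, filterByExpr with a minimum count of 10 and a total of 15, quasi-likelihood test, Benjamini-Hochberg over all genes), called at an adjusted p under 0.05 and at least 2-fold. DESeq2 1.42.0 was an alternative, with no filter. Library totals of 12396317 to 18547078 counts set the precision. The scripts were tested on simulated data. Similar transcripts were sought with blastn 2.17.0 at 95% identity. A ratio against libraries at 0 uses 3 counts summed over the group, and intervals (95%) cover counting error only.

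Genes were named by rule. They were those on a list of RNAs with a published name, the 10 highest by mean TPM in each WT assay, up to 10 with the largest change per direction in testis (mean of at least 20 counts, no overlap) and 5 in sorted cells, those with 6 or 7 marks at P7, and the strongest that gained or lost H3K4me3 or H4R3me2s. The 8 genes above 100 counts and the genes lower in testis were named after their values were seen. Alternatives were other distances, windows, TPM limits, list lengths, a q-value limit of 0.01, other scalings and filters, a replicate block and leaving out each library. Limiting the testis calls to a mean of 100 counts and leaving out 5 genes with peaks in nearly every list were chosen after seeing the data.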

Additional observations from a re-analysis of the deposited data

Results flagged for a closer look

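The 3 isolated lincRNA genes below, named by rule, had every Prmt1-dKO library on 1 side of every WT library in whole testis and on the opposite side in sorted cells, by depth-scaled counts (in TPM the genotypes overlapped for 1700048O20Rik in testis, for 2900097C17Rik in sorted cells and for Malat1 in both assays). The difference between the assays was not tested, and assay and cells cannot be told apart. The log2 fold change of 2900097C17Rik was -0.28 in testis and 0.51 in sorted cells, and its whole transcript is identical to sequence of Gm7292. For 1700048O20Rik it was 0.52 (edgeR adjusted p = 0.037) in testis and -1.06 (adjusted p = 0.234) in sorted cells. For Malat1 it was -0.84 (adjusted p = 0.0127) and 0.47 (adjusted p = 0.135).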

How the results depend on the processing

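Leaving out each library in turn, the number of isolated lincRNA genes called higher in Prmt1-dKO testes ranged from 54 to 72 and lower from 1 to 5. As shares of those tested these were 18.9% to 28.1% (all genes 3.97% to 6.18%) and 0.33% to 1.98% (all genes 1.14% to 2.36%). Without a count filter 158 were higher (8.62%, all genes 5.95%) and 8 lower (0.437%, all genes 1.26%), and DESeq2 called 116 higher (6.33%, all genes 4.62%). With a mean of at least 100 counts (chosen after seeing the data) 8 of 45 were higher (all genes 1.21%) and 1 lower (all genes 1.41%). In sorted cells DESeq2 called 24 higher and 4 lower, and single libraries decided the edgeR count, which ranged from 0 to 136 higher and from 0 to 54 lower. It was 136 and 51 without WT replicate 1, 104 and 54 without WT replicate 2, and 0 without either mutant library, where the lone library was assumed to vary like the others. In the fits without a WT library, the shares of isolated lincRNA genes called were close to those of all genes tested, in both directions. These counts are therefore not shown to be particular to isolated lincRNA genes. The age difference at equal list length was -0.594 points for H3R2me2a, -0.495 for H3K4me3 and 0.410 for H4R3me2s, and that of H4R3me2s was 0.187 at q under 0.01 and ranged from -2.42 to 2.0 without single libraries. The genotype difference in H4R3me2s was -0.341 at q under 0.01, -0.484 at equal length and -1.09 to 3.33 without single libraries. The gap to coding genes in H4R3me2a ranged from -26.9 to -22.5 points with an exact p of 0.062 once a library was left out. At TPM limits of 0.5 and 0.1, 314 and 699 genes were expressed in WT testis, and at 0.1 390 in sorted WT. The share of genes with H3K4me3 that were expressed was then 44.4% in sorted WT and 67.5% in testis, and 44.0% in testis with a 1500 bp window. Same-numbered samples did not deviate together (correlations of 0.08, -0.22 and -0.12 in testis and 0.02 in sorted cells), so the numbers do not pair them. With a replicate block 45 genes were higher (20.2%, all genes 4.17%) and 3 lower (1.35%, all genes 1.56%) in testis. In sorted cells 0 were called (all genes 0%), and the H4R3me2s age difference with the block was 0.330. In sorted cells the block turned the log2 fold change of Platr4 to 2.55, Mir17hg to 2.48 and Gm48653 to 0.30, and leaving out single libraries gave ranges of -1.26 to 8.52 for Platr4, -1.52 to 8.76 for Mir17hg, -1.32 to 0.075 for Lncpint and -1.29 to 0.30 for Gm26901. The cause of these changes was not tested. Peak depth is unknown, which limits all comparisons of lists between ages.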
